A study of Danio rerio with 12 samples.

Results

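The nuclear-encoded subunits of the respiratory chain were described in adult zebrafish liver. Members were all genes whose symbol, ignoring case, begins as a complex I (ndufa, ndufb, ndufc, ndufs or ndufv with a number), complex III (uqcr), complex IV (cox4 to cox8) or ATP synthase (atp5f, atp5m or atp5p) subunit, together with cyc1. The rule found 88 of the 32520 genes in the tables: 36 of complex I, 9 of complex III, 25 of complex IV and 18 of ATP synthase (complex V). The 4 genes with NDUFA4-type symbols are counted with complex IV, where the human NDUFA4 protein is known to sit. Assembly factors and the acyl carrier ndufab1 lie outside the rule.

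The respiratory chain sits in the inner mitochondrial membrane. Complex I oxidises NADH, complex III passes electrons to cytochrome c and complex IV hands them to oxygen, while the protons pumped on the way drive ATP synthase. Most subunits are encoded in the nucleus and imported, and a small core is encoded in mitochondrial DNA, so that the complexes need transcripts from both genomes. In mammalian liver, oxidative phosphorylation supplies the ATP for glucose and urea synthesis. Several complex IV subunits exist in tissue forms, and in mammals COX7A1, COX6A2 and COX8B are the heart and skeletal muscle forms.

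RNA was measured in 12 libraries of whole liver. Of these, 6 came from fish homozygous for a CRISPR knockout of glyoxalase 2 (glo2-/-) and 6 from wild type fish (glo2+/+). All were adults of the Tg(fli1:EGFP) line, in which a fluorescent reporter marks the endothelium, and all are marked as not trained. The study asked how loss of glyoxalase 2, which hydrolyses the glutathione adduct formed from methylglyoxal, bears on liver glucose metabolism. The labels say neither what the allele removes nor the sex of the fish, and do not state that every library is a different animal. The p-values therefore rest on the spread among these libraries, and some of that spread may be technical. In whole tissue, fewer cells of a type and less RNA per cell cannot be told apart.

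Library totals lay between 17433960 and 18465485 estimated counts. The targeted gene, hagh, averaged 81.5 ± 4.47 CPM (counts scaled to the library total after adjustment by TMM factors) in glo2-/- livers and 94.8 ± 5.40 CPM in glo2+/+ livers (SD, n = 6 each), a log2 fold change of -0.22 with a standard error (SE) of 0.09. Its 6 glo2-/- libraries lay at 76.1 to 88.1 CPM, all below the glo2+/+ libraries at 91.6 to 105 CPM. The exact two-sided permutation p was 0.00216, the smallest that reassigning 6 and 6 libraries allows, and the edgeR quasi-likelihood p adjusted over all genes was 0.819. The 11 hepatocyte markers were all measured and summed to 180700 to 338300 CPM in glo2-/- livers and 204100 to 329200 CPM in glo2+/+ livers. Markers of exocrine pancreas varied widely, from a mean log2 CPM of 0.661 to 8.09 among glo2-/- libraries and from -0.02 to 6.34 among glo2+/+ libraries. The 3 libraries highest in them were replicates 1 and 5 of glo2-/- and replicate 6 of glo2+/+. All 18 tested pancreas markers had a log2 fold change above 0 (median 1.18). Their mean log2 CPM, centred on each marker's mean over the 12 libraries, showed no such difference. It was -0.021 ± 3.01 in glo2-/- and 0.021 ± 2.40 in glo2+/+ libraries (SD, n = 6 each). All 9 tested macrophage markers had a log2 fold change below 0 (median -0.47). Of these, 3 had an edgeR unadjusted p under 0.05, against 3.41% of all genes lower at that threshold. The centred mean of all 9 was -1.15 to 0.378 in glo2-/- libraries and 0.04 to 1.05 in glo2+/+ libraries, so the genotypes overlapped. The macrophage list summed to 58.6 to 160 CPM in glo2-/- livers and 102 to 247 CPM in glo2+/+ livers. None of these markers passed an adjusted p of 0.05 in edgeR, and their part in the values given here was not tested beyond leaving out the 3 pancreas-rich libraries and a pancreas covariate.

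Subunit levels differed widely between genes and little between genotypes. Levels between genes are compared in TPM, a transcript abundance corrected for length. The median over tested members of the mean TPM was 98.7 in complex I, 121 in complex III, 347 in complex IV and 340 in complex V. The most abundant member was cox6c (ENSDARG00000038577), a small accessory subunit of complex IV, at 1113 TPM. Among tested complex I genes the accessory subunit NDUFA3 was lowest at 35.7 TPM and the accessory subunit NDUFB1 highest at 595 TPM. The TPM of NDUFB1 rests on comparatively few reads, 20.7 ± 5.47 CPM in glo2-/- livers and 19.8 ± 2.83 CPM in glo2+/+ livers (SD, n = 6 each). Complex III ran from UQCRFS1, the Rieske iron-sulfur protein, at 52.6 TPM to the small subunit UQCRQ at 423 TPM. ATP synthase ran from ATP5PD, a subunit of the peripheral stalk, at 61.9 TPM to atp5mc3b, a gene for the proton-carrying ring, at 720 TPM. The catalytic beta subunit ATP5F1B stood near the top of complex V at 703 TPM.

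**Figure D1:**
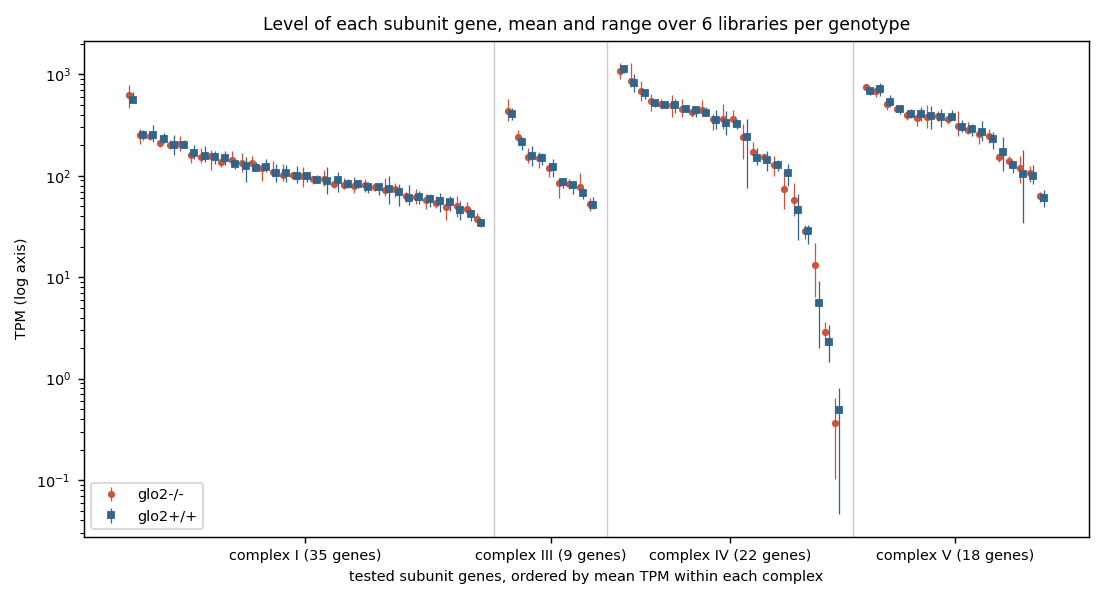
TPM of each tested member by complex, on a log axis; points are means and lines the range over 6 libraries, glo2-/- (circles) left of glo2+/+ (squares). Complex IV spans the widest range, from ndufa4b at 0.428 TPM to cox6c at 1113 TPM.

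Together the members took 1.67 to 2.13% of all TPM in glo2-/- libraries and 1.71 to 2.14% in glo2+/+ libraries. The 13 protein genes of mitochondrial DNA took far more, 9.92 to 17.3% in glo2-/- libraries and 11.3 to 18.1% in glo2+/+ libraries. The balance between complexes was close in the genotypes. Complex I held 23.0 ± 0.73% of the members' TPM in glo2-/- livers and 23.0 ± 0.28% in glo2+/+ livers, and complex IV held 38.7 ± 1.12% in glo2-/- livers and 38.4 ± 0.82% in glo2+/+ livers (SD, n = 6 each).

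Of the 88 members, 84 passed the filter on low counts. The other 4 were near 0 in every library: ndufa9b, ndufa4l2b, NDUFA4L2 and the COX5B copy ENSDARG00000113254, the highest of them reaching 15.9 estimated counts.

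No member passed an adjusted p of 0.05 in edgeR's quasi-likelihood test with Benjamini-Hochberg adjustment. Over all 14509 genes tested, 1 gene (0.00689%) passed. DESeq2 gave a p-value for more genes, 25411, among them all 88 members. At an adjusted p of 0.05 it called 34 of these genes and no member. Its own filter on low counts may have kept some genes, such as members near 0, from an adjusted p. At an unadjusted p under 0.05, 1 member was higher in glo2-/- livers (1.19%), against 2.47% of all genes. At the same threshold 2 members were lower (2.38%), against 3.41% of all genes. Non-overlapping genotypes were seen in 0 members, while 0.0965% of all genes lay wholly higher and 0.152% wholly lower in glo2-/-. These shares of members lay below the background or near it.

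The intervals were narrow for most members. The 95% interval of the log2 fold change lay inside a 2-fold change in either direction for 81 of 84 members (96.4%), against 76.6% of all genes tested. It lay inside a 1.5-fold change for 76 of 84 members (90.5%), against 40.3% of all genes tested. Among these members were all 35 of complex I and all 9 of complex III. The 3 intervals that reached a 2-fold change belonged to the complex IV genes cox4i1l, COX5B (ENSDARG00000015978) and ndufa4b. Of the 84 members, 74 had a log2 fold change within 0.2 of 0 (88.1%), against 56.9% of all genes.

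**Figure D2:**
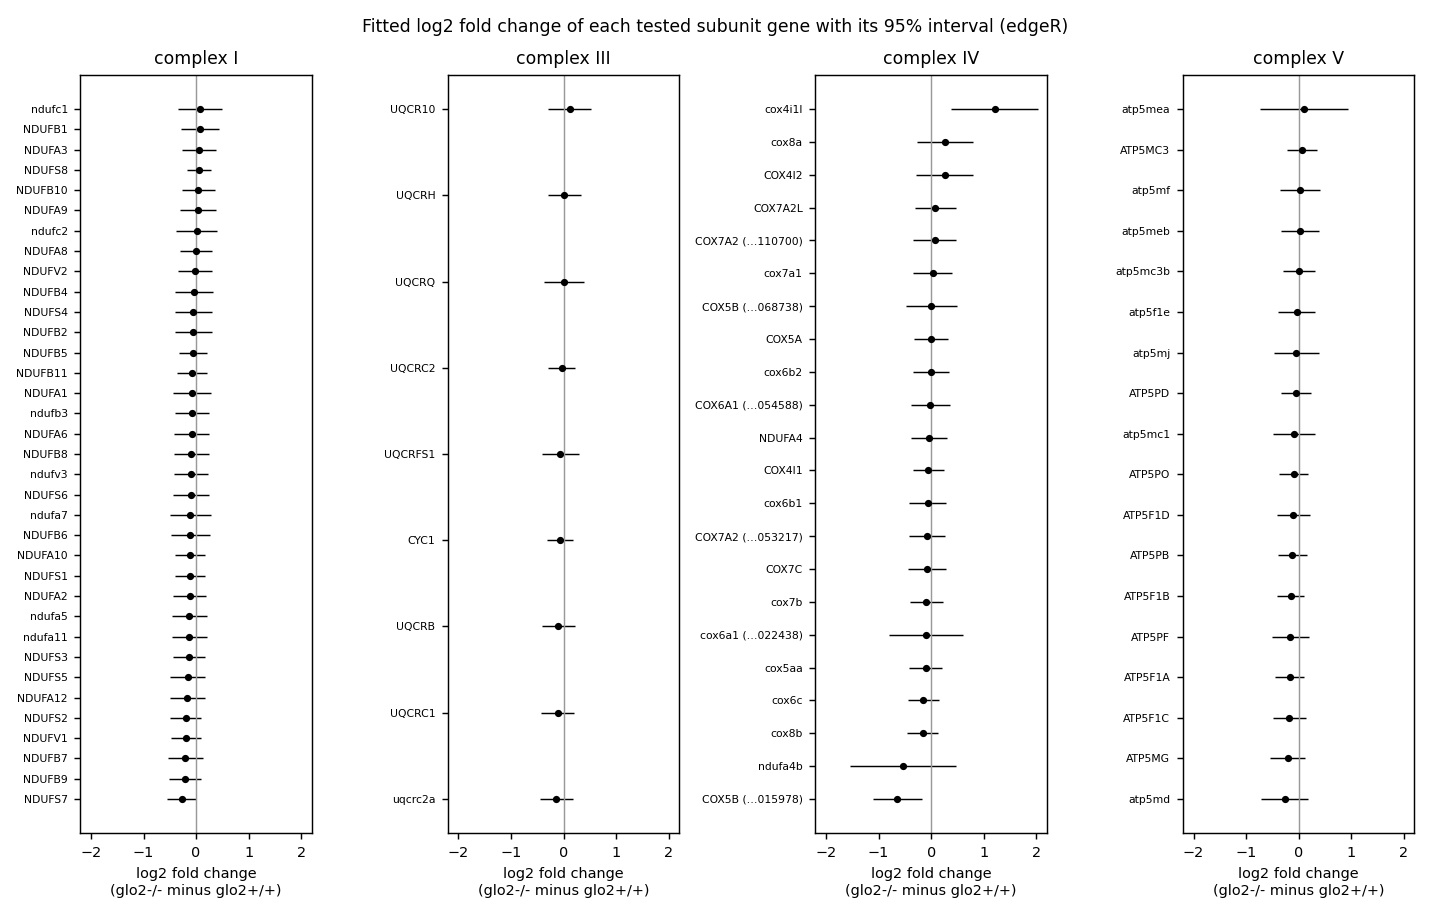
Log2 fold change (glo2-/- minus glo2+/+) of each tested member by complex, with 95% intervals from edgeR. Most points lie within 0.2 of 0, and the farthest are cox4i1l at 1.21 and COX5B (ENSDARG00000015978) at -0.65.

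A fold change below 0 was found in 60 of 84 members (71.4%), against 52.4% of all genes. By complex these were 27 of 35 in complex I, 6 of 9 in complex III, 14 of 22 in complex IV and 13 of 18 in complex V. The median log2 fold change of all members was -0.08, against -0.01 for all genes. On log2(TPM + 1), 35 of 84 members were below 0 (41.7%), but all genes shifted with that scale, to 37.6% below 0. Leaving out a single library also moved the split. Without glo2-/- replicate 1, 78 of 84 members (92.9%) were below 0, against 53.0% of all genes. Without glo2+/+ replicate 2, 35 of 84 (41.7%) were, against 52.4% of all genes, so the members then lay on the other side of the background. No direction is given to the family for that reason.

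In complex I, the smallest p belonged to NDUFS7 (ENSDARG00000074552), an iron-sulfur subunit on the path of electrons to ubiquinone. Its level was 36.9, 50.2 and 58.0 TPM (lowest, median and highest) in glo2-/- livers and 44.9, 56.8 and 63.1 TPM in glo2+/+ livers. The groups overlapped. The log2 fold change was -0.27 (SE 0.13), with an edgeR adjusted p of 0.819, and it was -0.18 without glo2+/+ replicate 2, the highest library. The accessory subunit NDUFB9 had a log2 fold change of -0.21 (SE 0.14). Among the core subunits, NDUFV1, which binds NADH, had -0.20 (SE 0.13) and NDUFS1 had -0.12 (SE 0.13). NDUFS8, another iron-sulfur subunit, had 0.05 (SE 0.11) and was the steadiest member, with a coefficient of variation of 8.35% over the 12 libraries.

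In complex III, the core subunits UQCRC1 and uqcrc2a had log2 fold changes of -0.11 (SE 0.14) and -0.14 (SE 0.15). UQCRC2, the other copy of the latter, had -0.04 (SE 0.12). CYC1, the cytochrome c1 that passes electrons to cytochrome c, had -0.06 (SE 0.12) and a coefficient of variation of 10.8%. UQCRFS1 had -0.06 (SE 0.16) and UQCRQ 0.01 (SE 0.18). All of these lay within about 1 SE of 0.

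In ATP synthase, the smallest p values belonged to ATP5MG, a membrane subunit, at a log2 fold change of -0.21 (SE 0.16), and to the catalytic-head subunit ATP5F1A at -0.17 (SE 0.13). ATP5F1B averaged 1080 ± 52.8 CPM in glo2-/- livers and 1202 ± 206 CPM in glo2+/+ livers (SD, n = 6 each). The spread was wider in glo2+/+ livers, and the log2 fold change was -0.15 (SE 0.12). For the ring, atp5mc3b had 0.01 (SE 0.14), atp5mc1 -0.09 (SE 0.19) and ATP5MC3 0.06 (SE 0.13).

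Complex IV held the members that differed most. The gene cox4i1l (ENSDARG00000012388), named as a relative of the COX4 subunit, was at 6.42, 11.8 and 21.7 TPM (lowest, median and highest) in glo2-/- livers and 2.02, 6.07 and 9.25 TPM in glo2+/+ livers. In CPM, glo2-/- replicates 1 to 6 were at 13.4, 8.38, 4.84, 5.63, 2.74 and 6.54, and glo2+/+ replicates 1 to 6 at 4.89, 3.42, 1.73, 3.45, 3.34 and 1.11. The groups overlapped: glo2-/- replicate 5 lay among the glo2+/+ libraries and glo2+/+ replicate 1 just above glo2-/- replicate 3. The log2 fold change was 1.21 (SE 0.39, 95% interval 0.38 to 2.04). The exact two-sided permutation p of log2 CPM was 0.026, not adjusted for the number of genes. The edgeR unadjusted p was 0.00766, the edgeR adjusted p 0.799 and the DESeq2 adjusted p 0.250. The adjusted p of cox4i1l ran from 0.250 (DESeq2) to 0.995 (edgeR, without glo2-/- replicate 5) over the alternatives. When single libraries were left out the log2 fold change was lowest at 0.91, without glo2-/- replicate 1, the library highest in pancreas markers. Without the 3 libraries highest in those markers it was 0.92, and with the marker level as a covariate it was 1.21.

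COX5B (ENSDARG00000015978), a copy of the zinc-binding subunit on the matrix side, was at 47.6, 72.5 and 110 TPM in glo2-/- livers and 78.9, 110 and 131 TPM in glo2+/+ livers (lowest, median and highest). In CPM it averaged 28.5 ± 6.98 in glo2-/- livers and 44.7 ± 13.8 in glo2+/+ livers (SD, n = 6 each). The glo2+/+ values were led by replicate 3 at 67.9 CPM, and glo2+/+ replicates 5 and 6 lay within the glo2-/- range. The log2 fold change was -0.65 (SE 0.22, 95% interval -1.12 to -0.18), with an edgeR adjusted p of 0.819. The abundant copy (ENSDARG00000068738) had a log2 fold change of 0.00 (SE 0.22). Reads of close copies may have been divided between them, so levels of single copies are uncertain.

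**Figure D3:**
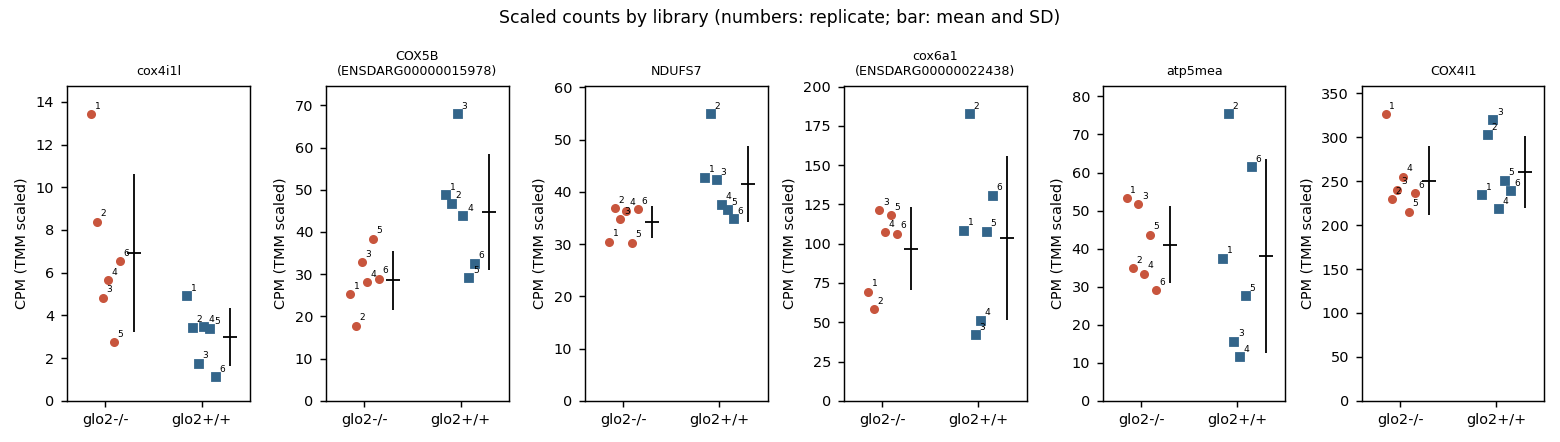
CPM by library of 6 members, glo2-/- left of glo2+/+, 1 numbered point a library, with the mean and SD as bars. The genotypes overlap in every panel, with cox4i1l and COX5B (ENSDARG00000015978) shifted most.

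Tissue forms, and gene copies that are not tissue forms such as those of COX5B, were compared as shares of the TPM of their set. There were 12 sets of both kinds together. COX4I1, the general form of the COX4 subunit, held 97.0 ± 0.87% of its set in glo2-/- livers and 98.5 ± 0.57% in glo2+/+ livers (SD, n = 6 each), a difference of -1.48 percentage points. The exact two-sided permutation p was 0.00649, and 0.0779 after Benjamini-Hochberg adjustment over 12 sets, so it did not pass. The share of cox4i1l was 2.47 ± 0.95% in glo2-/- livers and 1.08 ± 0.57% in glo2+/+ livers. COX4I2, which in mammals is the lung form, held 0.545% in glo2-/- livers and 0.451% in glo2+/+ livers. The test of the share and that of cox4i1l rest on the same reads.

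None of the other 11 sets passed either. The COX6A set was led by COX6A1 (ENSDARG00000054588) at 69.8 ± 8.57% in glo2-/- livers and 69.7 ± 10.8% in glo2+/+ livers. NDUFA4 held 99.8% of its set in both genotypes. The COX5B set was led by ENSDARG00000068738 at 91.7% in glo2-/- livers and 88.2% in glo2+/+ livers, with an exact permutation p of 0.0758 and 0.455 after adjustment. The COX8 set was led by cox8b at 88.2 ± 2.99% in glo2-/- livers and 90.7 ± 2.84% in glo2+/+ livers (SD, n = 6 each).

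Genes with the symbols of mammalian muscle forms were abundant, but whether they are orthologues of those forms was not checked. The mean level of cox8b was 426 TPM in glo2-/- livers and 445 TPM in glo2+/+ livers, and that of cox7a1 was 173 TPM in glo2-/- livers and 149 TPM in glo2+/+ livers. In CPM, the unit of the marker sums below, cox8b averaged 162 in glo2-/- and 182 in glo2+/+ livers. On that scale cox7a1 averaged 49.9 in glo2-/- and 49.0 in glo2+/+ livers. Within the COX7A set, COX7A2L held 35.45% in glo2-/- and 35.13% in glo2+/+ livers. The COX7A2 copy ENSDARG00000110700 was nearly level with it, at 35.41% in glo2-/- and 35.09% in glo2+/+ livers. In the same set cox7a1 held 16.7% in glo2-/- and 16.1% in glo2+/+ livers. Of 16 skeletal and heart muscle markers, 5 passed the filter, and all 16 summed to 18.1 to 40.3 CPM in glo2-/- livers and 8.14 to 42.5 CPM in glo2+/+ livers. Most of that sum came from myoglobin (mb), at 11.8 to 27.9 CPM in glo2-/- livers and 4.65 to 24.96 CPM in glo2+/+ livers, and from the heart myosin light chain MYL7, at 0.192 to 19.1 CPM in glo2-/- livers and 1.27 to 20.7 CPM in glo2+/+ livers. The muscle creatine kinase ckma reached 1.70 CPM in glo2-/- livers and 1.83 CPM in glo2+/+ livers. No marker of the list was at 0 in all libraries, but 11 of the 16 were at 0 in at least 1 library. The part of muscle RNA in these levels was not tested.

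**Figure D4:**
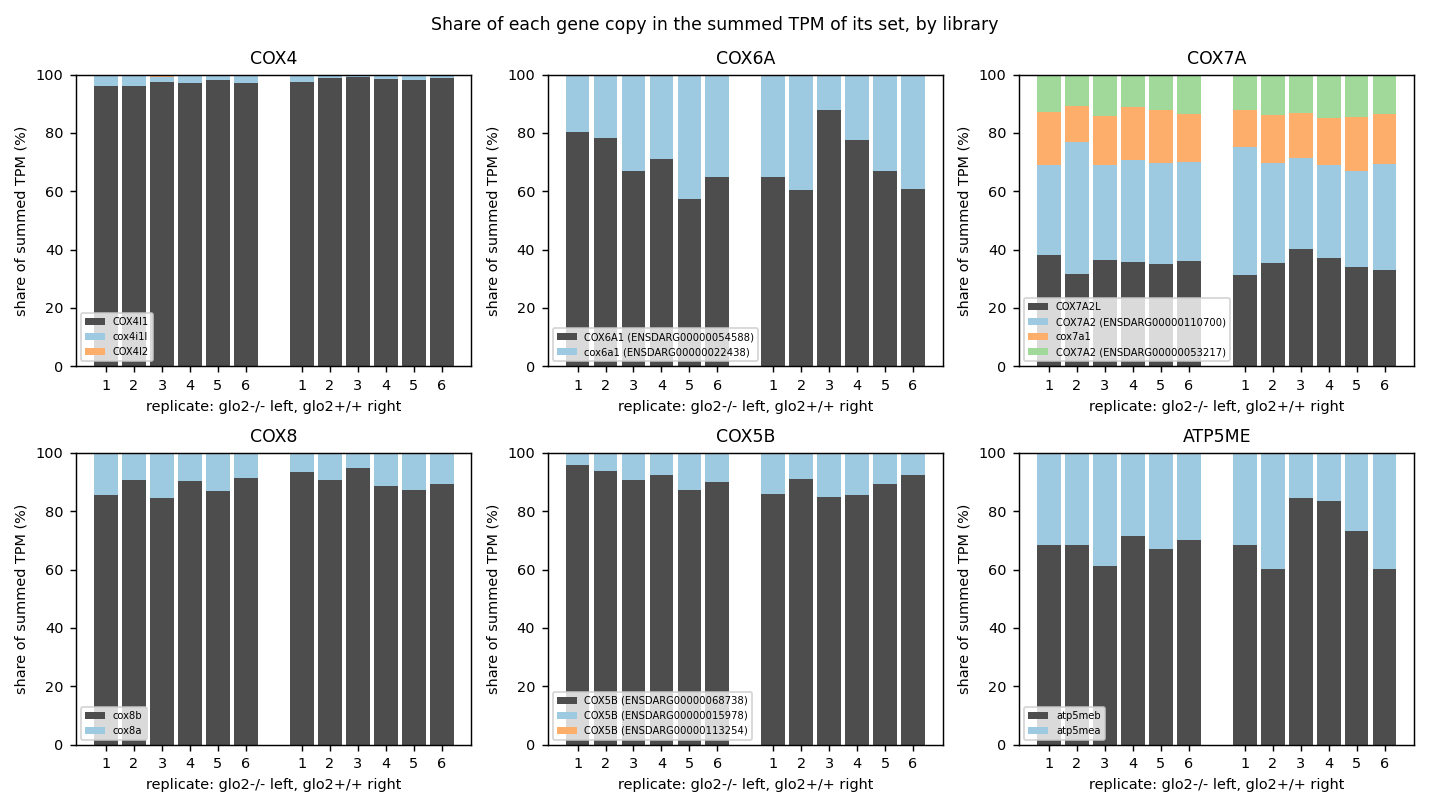
Stacked bars of the share of each copy in the summed TPM of its set, in percent, for 6 sets, 1 bar a library, glo2-/- left of glo2+/+. The COX4 set is nearly all COX4I1, at a mean of 97.0% in glo2-/- and 98.5% in glo2+/+ livers.

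Members moved together between libraries. After the genotype means were subtracted, the median Pearson correlation of log2 CPM over the 12 libraries was 0.71 across 3486 pairs of members, against -0.00099 across all tested genes. The values are a description only, since all genes of a library share its RNA and its scaling factor. On log2(TPM + 1) the median was 0.42 for members and 0.21 for all tested genes. By complex the median on log2 CPM was 0.75 within complex I, 0.67 within complex III, 0.53 within complex IV and 0.78 within complex V. Between complexes it ran from 0.58, for III with IV, to 0.75, for I with V.

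The members least like the rest were mostly genes of complex IV. They included low genes and also copies at higher levels, such as cox6a1 (ENSDARG00000022438) at a mean of 241 TPM. Their median correlation with the other members was -0.59 for ndufa4b, 0.10 for cox6a1 (ENSDARG00000022438), 0.10 for COX5B (ENSDARG00000015978) and 0.18 for cox4i1l. It was 0.85 for the complex I subunits NDUFB8 and NDUFB4. The value for ndufa4b rests on few reads, 1.04 to 16.7 estimated counts a library. A pair of variable copies varied most among glo2+/+ libraries. The copy cox6a1 (ENSDARG00000022438) lay between 58.4 and 121 CPM in glo2-/- livers and between 41.6 and 182 CPM in glo2+/+ livers. The ATP synthase copy atp5mea lay between 29.0 and 53.3 CPM in glo2-/- livers and between 11.4 and 75.3 CPM in glo2+/+ livers. For both, glo2+/+ replicate 2 was highest and glo2+/+ replicates 3 and 4 lowest of the 12 libraries. Replicates 2 and 4 of glo2+/+ were also the highest and the lowest library for the members as a whole on log2 CPM, whereas glo2+/+ replicate 3 ranked 3 for the members as a whole.

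The shared shift was largest in single libraries. The mean deviation of members on log2 CPM was highest at 0.291 among glo2-/- libraries, in replicate 1, and at 0.407 among glo2+/+ libraries, in replicate 2. It was lowest at -0.196 in glo2-/- replicate 6 and at -0.275 in glo2+/+ replicate 4. In glo2-/- replicate 6, 4 of 84 members lay above their own mean, while in glo2+/+ replicate 2, 81 of 84 did. By genotype the deviation averaged -0.023 ± 0.181 in glo2-/- libraries and 0.023 ± 0.230 in glo2+/+ libraries (SD, n = 6 each), a difference smaller than the spread. The order depended on the unit: glo2+/+ replicate 3 ranked 3 on log2 CPM and 12, the lowest, on log2(TPM + 1). TMM factors were highest in glo2-/- replicates 6 (1.15) and 5 (1.12) and glo2+/+ replicate 4 (1.11). On log2 CPM these libraries ranked 11, 10 and 12. The factors were lowest in glo2+/+ replicate 3 (0.817), glo2-/- replicate 4 (0.869) and glo2+/+ replicate 2 (0.883), which ranked 3, 6 and 1. The part of the factors in the shared shift and in the correlations was not tested.

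**Figure D5:**
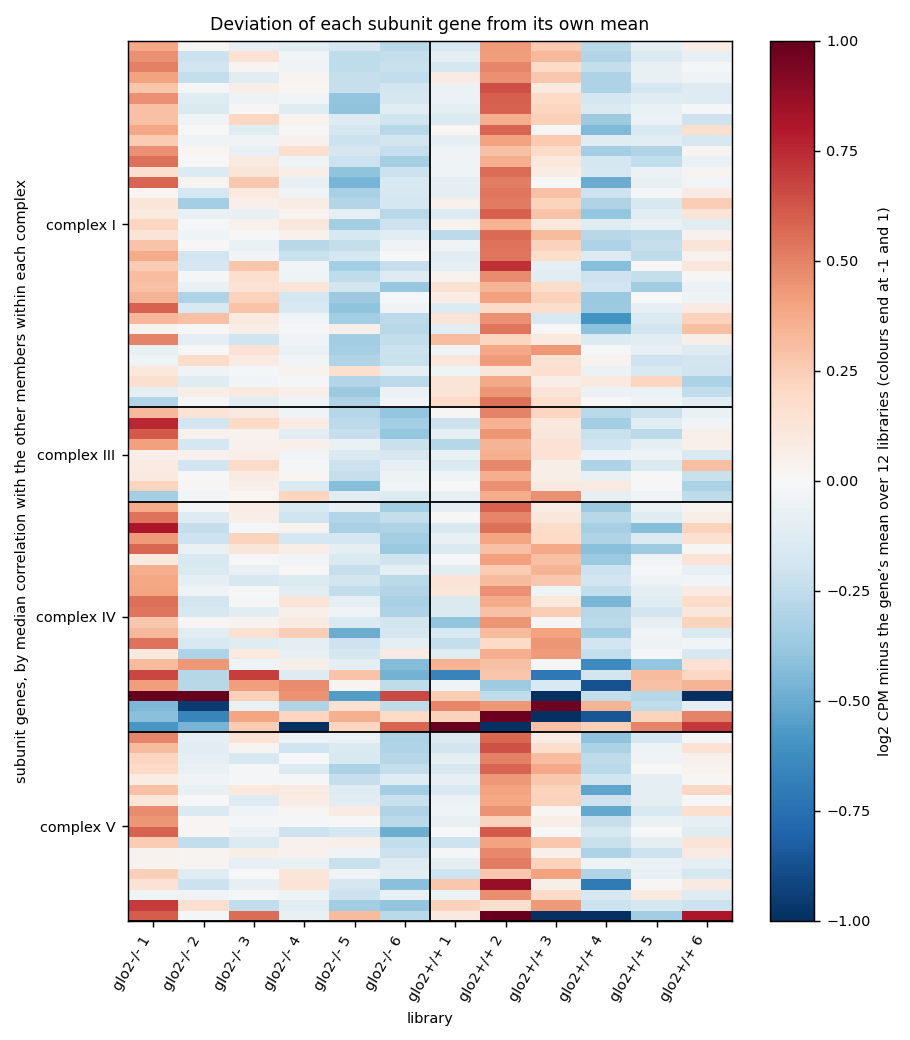
Heat map of log2 CPM of each tested member (down the page, by complex) minus its mean over 12 libraries (across, glo2-/- left of glo2+/+), red above and blue below the mean. The column of glo2+/+ replicate 2 is red almost throughout, with a mean deviation of 0.407.

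The median coefficient of variation of members over the 12 libraries was 18.8%, against 26.8% for all tested genes, and 75 of 84 lay below that median. Levels were not matched in any comparison with all tested genes, including those of the intervals, the fold changes within 0.2 of 0 and the correlations. The median level was 145.6 TPM for tested members and 3.30 TPM for all tested genes, and these measures depend on the number of counts. The most variable were cox4i1l at 67.6%, ndufa4b at 54.9% and atp5mea at 47.0%. Of these, ndufa4b had few reads, at most 16.7 estimated counts in any library.

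Other genes of the pathway gave no call past an adjusted p of 0.05 in edgeR. Of 5 tested genes of complex II and cytochrome c, 3 had a fold change above 0 and 2 below, with a median log2 fold change of 0.01. The complex II flavoprotein SDHA had 0.06 (SE 0.14). Of the 13 genes of mitochondrial DNA, 5 were above 0 and 8 below, with a median of -0.01. MT-ND5 had -0.24 (SE 0.14) and MT-ND6 0.25 (SE 0.22), both complex I subunits. Their levels were far apart. MT-ND5 averaged 3033 CPM in glo2-/- and 3579 CPM in glo2+/+ livers, and MT-ND6 only 6.30 CPM in glo2-/- and 5.31 CPM in glo2+/+ livers. Of 43 assembly factors, 25 were above 0 and 18 below. At an edgeR unadjusted p under 0.05, 1 of the 43 was lower, against 3.41% of all genes. It was NUBPL, which delivers iron-sulfur clusters to complex I in human cells, at -0.43 (SE 0.17, edgeR adjusted p 0.819). That count is not read as a result about the assembly factors. The 13 regulators of mitochondrial genes had a median of -0.02, and 16 genes of carriers and mitochondrial mass a median of -0.00045. The matrix chaperonin HSPD1, of the second list, had 0.40 (SE 0.21). Neither list held a gene with an unadjusted p under 0.05.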

How the data were processed

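The 12 libraries of whole-liver RNA were sequenced on a BGISeq-500 platform, per the labels. The submitters' processing notes name Trim Galore 0.6.4, kallisto 0.4.6 and the build GRCz11. The annotation release, strand setting and summing to genes are not given in the sources used. The authors deposited estimated counts per gene, of which 19.1% were not whole by over 0.001. The authors also deposited TPM for the same genes. Names came from a table by identifier (29201 of 32520 matched), which gives many zebrafish copies a human-style symbol.

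Estimated counts were rounded, and edgeR 4.0.16 was run in R 4.3.3 (filterByExpr, TMM factors, quasi-likelihood test, genotype as the only term), with Benjamini-Hochberg adjustment over all 14509 genes tested. CPM carry TMM factors, and log2 CPM a prior count of 2. Shares were compared by exact two-sided permutation over all assignments of libraries. Scripts were tested on simulated data. Alternatives used DESeq2 1.42.0, limma 3.58.1 on log2(TPM + 1) and log2(TPM + 0.1), voom with sample weights, other filters and factors, a pancreas covariate, a replicate block and leaving out libraries. No 2 libraries agreed within sampling noise; the smallest chi-square per degree of freedom among 66 pairs was 30.24.

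Members and lists were chosen with earlier results of these data known. Named genes were, per complex, the 2 with the smallest p, the highest and the lowest in TPM, any at an unadjusted p under 0.05, and the tissue forms. Any further gene was chosen with its values in view. A replicate number shared by the genotypes was not treated as a pairing in the reported fit. Chromosome positions and sequences were not used here.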

Additional observations from a re-analysis of the deposited data

Results flagged for a closer look

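Of 98 sets of 6 values examined, 7 had a library far from the other 5 by Dixon's test. Chance gives about 1 in 20, or 5 of 98. On log2 CPM, cox6c was at 8.283 in glo2-/- replicate 1, against 7.629 to 7.807 in the other glo2-/- libraries, and NDUFA4 was at 8.578 in the same library, against 7.827 to 7.941. In glo2-/- replicate 6, ATP5PD was at 6.604, against 6.781 to 6.876. In glo2+/+ replicate 2, atp5mc1 was at 8.554, against 7.78 to 7.945, and ndufa4b at -2.538, against -0.6944 to 0.09169. The values of ndufa4b rest on few reads, 1.04 to 16.7 estimated counts a library. In glo2+/+ replicate 3, atp5mc3b held 64.75% of its set, against 53.8 to 57.22% in the other glo2+/+ libraries, and uqcrc2a held 57.84%, against 50.58 to 51.36%.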

How the results depend on the processing

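No member passed an adjusted p of 0.05 under any alternative run. Of 32 named genes tested, hagh included, 18 changed the sign of their log2 fold change under at least 1 alternative. Among them were cox6b2, under 11 alternatives, and UQCRQ, under 6. No direction is given to those 18 genes. The count of members lower in glo2-/- at an unadjusted p under 0.05, 2 in the reported fit, was 1 with DESeq2 size factors, DESeq2, limma on log2(TPM + 1) and log2(TPM + 0.1), voom weights, no filter, the replicate block, and without the 3 libraries highest in pancreas markers. It was 1 to 3 when single libraries were left out. COX5B (ENSDARG00000015978) was among them each time. In the reported fit the 2 members were 2.38% of those tested, against 3.41% of all genes. That share of all genes is not given for the alternatives, so the counts are not read as a result about the members. Members with a log2 fold change below 0, 60 of 84, numbered 35 on both TPM scales (41.7%, against 37.6% of all genes on log2(TPM + 1) and 37.0% on log2(TPM + 0.1)) and 35 to 78 when single libraries were left out (35 without glo2+/+ replicate 2, 78 without glo2-/- replicate 1). Without the 3 libraries highest in pancreas markers 73 of 84 were below 0 (86.9%, against 51.7% of all genes). With the pancreas covariate 60 were (71.4%, against 52.6% of all genes). The median correlation between members, 0.71, was 0.42 on both TPM scales. The difference in the share of NDUFA4, -0.00418 percentage points, was 0.0797 with CPM in place of TPM. The median log2 fold change of all genes was 0.048 on log2(TPM + 1) and 0.075 on log2(TPM + 0.1), against -0.01 in the reported fit, so all genes shifted with the TPM scales. The cause of the other shifts was not tested. With the replicate number as a block, 61 members were below 0. Same-numbered libraries of the genotypes correlated between -0.280 and 0.205. For glo2-/- replicates 1 and 4 the best glo2+/+ partner was the same-numbered library, and for the others it was not. Correlations over so few pairs cannot decide whether same-numbered libraries were handled together. The 4 members that were not tested had too few counts for the filter, reaching at most 15.9 estimated counts in any library.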
